A study of Mus musculus with 8 samples.

Results

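The 4 Hox clusters of the mouse genome were examined as 290 windows of 2 kb in 8 H3K9me3 ChIP-seq libraries. The libraries were of embryonic stem (ES) cells taken before and after induced ablation of *Setdb1*. The windows were chosen by position alone, as those inside fixed limits around each cluster, out of 1319530 windows on chromosomes 1 to 19 and X. *Hoxa* gave 65 windows (mm9, chr6:52100001-52230000), *Hoxb* 95 (chr11:96050001-96240000), *Hoxc* 65 (chr15:102740001-102870000) and *Hoxd* 65 (chr2:74490001-74620000). They were compared with 2000 windows in the 500 kb on each side of the clusters and with the whole genome. All 290 held a tag in at least 1 library.

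Hox genes encode homeodomain transcription factors that give cells of the embryo their position along the head to tail axis, and their order along a cluster follows the order in which they are used along that axis. In ES cells most of them are silent, and the clusters are a standard example of chromatin kept silent by Polycomb group proteins, which place H3K27me3. SETDB1 is a histone methyltransferase that places H3K9me3, a mark best known from retroviral elements and imprinted regions, and the Hox clusters were taken here as a candidate reference poor in that mark. Against their flanks this held in mean tags with 1 antibody preparation out of 3 in these data. With that preparation, the Upstate-type antibody, the pooled clusters lay below their flanks in mean tags. Before treatment their median window equalled that of the flanks, and *Hoxd* did not differ from its flanks beyond counting error. With windows over 3 times the genome median left out, the ratio of means was 1.01 before treatment and 0.787 on day 6. The lower mean before treatment thus came from flank windows with many tags. With lot 58206 the clusters were among the regions of the genome with the most tags. With lot 638466 they lay above their flanks by a smaller factor. They are therefore called only Hox clusters here.

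The cells were JM8 ES cells of C57BL/6N origin (subclone JM8.N4 in the study's list of *Setdb1* targeted lines), grown without feeders, with the *Setdb1* genotype that the study writes *tm1c/tm2* before treatment (*T* = 0) and *tm1d/tm2* after it. The sample labels write *tm1a/tm2* and *tm1c/tm2* for the same states. In all samples 1 allele was already disrupted (*tm2*) and CreERT2 was expressed from *Rosa26*. A 48 h treatment with 0.8 μM 4′OHT, which activates CreERT2, converted the remaining conditional allele to a null allele, and cells were taken 2, 4 and 6 days after its start (*T* = 2d, *T* = 4d and *T* = 6d). All 4 time points were precipitated with the Upstate-type antibody, a gift similar to a product of Upstate/Millipore. An Abcam antibody was used at *T* = 0 and *T* = 6d, in its lots 58206 and 638466. There was 1 library per antibody and time point, so a test within an antibody compares libraries and not conditions, and intervals cover counting error only. Whether libraries came from separate cultures was not given in the sources used here, and cells with an intact *Setdb1* allele and input chromatin were not analysed here.

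Each Upstate-type library held 6887819 tags, each library of lot 58206 held 8503927 and each of lot 638466 held 12194174, so each value below is a share of a fixed number of tags. The antibodies differed in how unevenly tags were spread. The share of all windows that reached 3 times the genome median at *T* = 0 was 9.0% for the Upstate-type library, 2.14% for that of lot 58206 and 0.576% for that of lot 638466.

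By the order of genes in the reference annotation, *Hoxa* ends with *Hoxa13*, next to *Evx1*. *Hoxb* runs from *Hoxb13*, next to *Ttll6*, to *Hoxb1*, next to *Skap1*, with 10 Hox genes. *Hoxc* runs from *Hoxc13*, next to *Calcoco1*, to *Hoxc4*, next to *Smug1*, with 9. *Hoxd* runs from *Hoxd13*, next to *Evx2*, to *Hoxd1*, next to *Mtx2*, with 9. Genes were not placed in single windows, because the annotation is of another build (GRCm38) than the tags (mm9).

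Many Hox promoters are rich in CpG. RefSeq promoters (GRCm38.p6) were found for 22 of the Hox genes, 24 promoters in all, and the 250 bases before the start held a median of 12.5 CpG dinucleotides, against 6.00 over 32851 promoters of all genes. At least 10 CpG were found in 62.5% of the Hox promoters and in 37.8% of all promoters. The promoters below are from 1 gene of each cluster, group 4 paralogues where the table held them and *Hoxa5* for *Hoxa*, and show the range from CpG-rich to CpG-poor sequence inside these domains. They are printed 5′ to 3′ with each CpG in capitals. They were not joined to tag numbers.
*Hoxa5*, GRCm38.p6 chr6:52204588-52204837, minus strand, 28 CpG: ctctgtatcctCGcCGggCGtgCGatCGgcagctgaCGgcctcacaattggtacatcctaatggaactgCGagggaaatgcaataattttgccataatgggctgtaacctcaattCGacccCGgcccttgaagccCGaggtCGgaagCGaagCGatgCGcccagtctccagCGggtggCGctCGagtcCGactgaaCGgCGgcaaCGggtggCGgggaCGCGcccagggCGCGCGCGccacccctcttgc
*Hoxb4*, GRCm38.p6 chr11:96318017-96318266, plus strand, 14 CpG: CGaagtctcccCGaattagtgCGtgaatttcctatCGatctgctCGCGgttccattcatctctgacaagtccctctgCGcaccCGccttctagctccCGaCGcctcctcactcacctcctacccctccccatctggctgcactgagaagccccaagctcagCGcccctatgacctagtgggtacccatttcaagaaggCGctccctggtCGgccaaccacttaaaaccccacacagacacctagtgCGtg
*Hoxc4*, GRCm38.p6 chr15:103034145-103034394, plus strand, 8 CpG: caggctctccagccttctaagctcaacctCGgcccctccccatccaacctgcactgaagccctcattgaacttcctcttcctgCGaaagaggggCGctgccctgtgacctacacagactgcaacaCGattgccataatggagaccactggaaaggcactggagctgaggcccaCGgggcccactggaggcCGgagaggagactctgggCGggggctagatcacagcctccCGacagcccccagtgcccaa
*Hoxd4*, GRCm38.p6 chr2:74721728-74721977, plus strand, 3 CpG: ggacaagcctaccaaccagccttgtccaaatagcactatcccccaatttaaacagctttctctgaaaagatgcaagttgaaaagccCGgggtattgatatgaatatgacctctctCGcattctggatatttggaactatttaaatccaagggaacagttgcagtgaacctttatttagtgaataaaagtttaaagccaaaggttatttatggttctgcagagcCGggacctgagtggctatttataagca

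The *Hoxa5* promoter held more CpG than 92.4% of all promoters, and that of *Hoxd4* more than 29.0%.

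With the Upstate-type antibody, the clusters together held 4.80 tags per window before treatment and 4.65, 4.04 and 3.28 on days 2, 4 and 6. Their flanks held 7.90, 8.19, 7.65 and 6.99 tags per window at these times. The clusters were thus below their flanks at every time, with a ratio of 0.608 (95% exact conditional interval 0.575 to 0.642) at *T* = 0 and 0.470 (0.440 to 0.502) at *T* = 6d. The distance lay in the upper end of the flank windows. The median window of the clusters equalled that of the flanks at *T* = 0 (ratio of medians 1.0), and 15.3% of flank windows reached 3 times the genome median while 1.72% of Hox windows did. With such windows left out of clusters and flanks, the ratio of means was 1.01, 1.06, 0.932 and 0.787 over the time course.

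The clusters differed from each other in this ratio with the Upstate-type antibody. *Hoxc* was lowest, at 0.471 (0.420 to 0.526) of its flanks at *T* = 0 and 0.284 (0.245 to 0.326) at *T* = 6d. *Hoxb* was at 0.497 (0.449 to 0.549) and 0.479 (0.426 to 0.537). *Hoxa* was at 0.760 (0.678 to 0.849) and 0.632 (0.549 to 0.726). *Hoxd* did not differ from its flanks beyond counting error at *T* = 0 (0.942, 0.829 to 1.07) and was below them at *T* = 6d (0.702, 0.607 to 0.810). The tags of the clusters themselves differed less, from 4.34 per window in *Hoxd* to 5.32 in *Hoxa* at *T* = 0, whereas those of the flanks ran from 4.61 around *Hoxd* to 10.8 around *Hoxc*. The order of the ratios was the reverse of that of the flanks. With flanks of 250 kb, *Hoxa* reached 1.01 at *T* = 0.

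The 3 flank windows with the most tags all lay around *Hoxc*. The window at chr15:103072001-103074000 (mm9) had 95, 95, 74 and 89 tags over the time course. At *T* = 0 and *T* = 6d lot 58206 gave 12 and 34 tags there and lot 638466 gave 13 and 12. The window at chr15:102494001-102496000 had 76, 82, 91 and 72 tags of the Upstate-type antibody, and between 10 and 16 with either Abcam lot. The third, chr15:103070001-103072000, had 41 and 110 tags of lot 58206, 13 and 16 of lot 638466 and 22, 28, 14 and 21 of the Upstate-type antibody, so that neighbouring windows stood out with different preparations. The highest Hox window of an Upstate-type library had 18 tags.

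With lot 58206 the picture was the opposite. The clusters held 16.4 tags per window at *T* = 0 and 19.7 at *T* = 6d, and their flanks 8.89 and 8.40. The ratio was 1.85 (1.79 to 1.91) at *T* = 0 and 2.35 (2.28 to 2.42) at *T* = 6d. Here the median window moved as well (ratios of medians 2.12 and 2.36), so the excess was spread over the clusters. At *T* = 0, 120 of 290 Hox windows (41.4%) reached 3 times the genome median, against 2.14% of all windows, and at *T* = 6d 140 (48.3%) did, against 2.15%.

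All 4 clusters shared this excess. *Hoxa* stood at 2.17 (2.03 to 2.32) times its flanks at *T* = 0 and 2.98 (2.80 to 3.16) at *T* = 6d. *Hoxb* stood at 1.52 (1.43 to 1.61) and 1.88 (1.78 to 1.99). *Hoxc* stood at 1.88 (1.76 to 2.01) and 2.22 (2.09 to 2.35), and *Hoxd* at 1.95 (1.82 to 2.09) and 2.62 (2.46 to 2.80). Among 19480 blocks of 130 kb that tile the rest of the genome, 10 held as many tags per kb as *Hoxa* at *T* = 0, 19 as many as *Hoxb*, 12 as many as *Hoxc* and 20 as many as *Hoxd*. At *T* = 6d the numbers were 6, 18, 6 and 6.

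With lot 638466 the clusters held 16.6 tags per window at *T* = 0 and 13.2 at *T* = 6d, and their flanks 12.4 and 11.6. The ratio to the flanks was 1.33 (1.29 to 1.38) at *T* = 0 and 1.14 (1.10 to 1.18) at *T* = 6d. The clusters therefore lay above their flanks with this lot too, by less than with lot 58206. *Hoxa* was highest at *T* = 0 (1.42, 1.33 to 1.51) and *Hoxb* lowest (1.22, 1.16 to 1.29). At *T* = 6d *Hoxd* did not differ from its flanks beyond counting error (1.03, 0.957 to 1.11). In this lot 6 Hox windows (2.07%) reached 3 times the genome median at *T* = 0, against 0.576% of all windows, and 0 did at *T* = 6d, against 0.0412%.

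**Figure D1:**
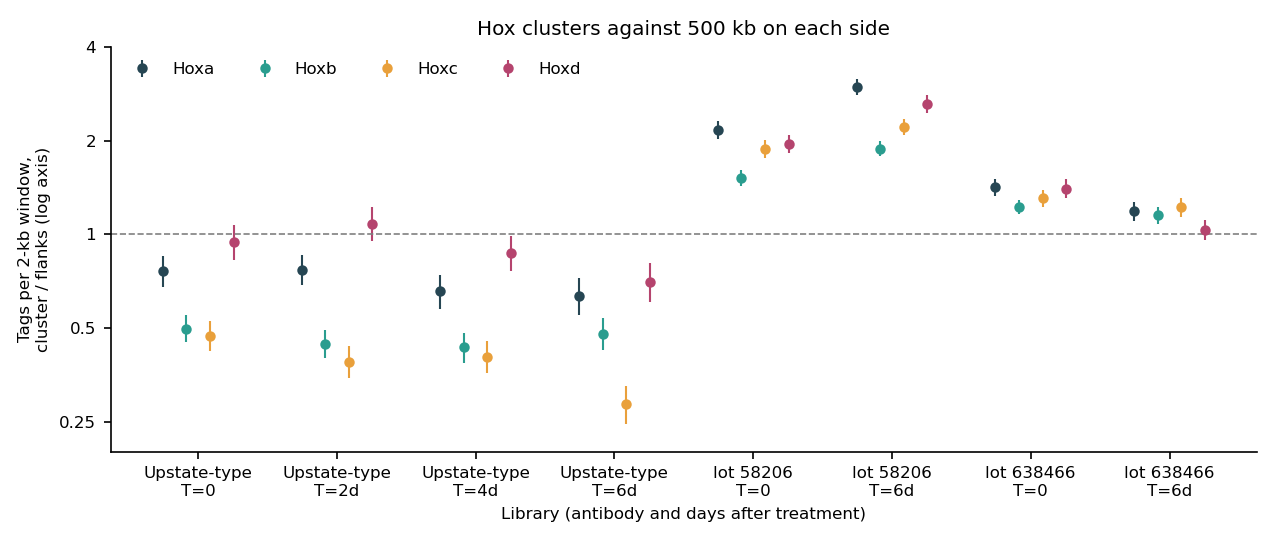
Tags per 2-kb window in each Hox cluster divided by those in 500 kb on each side (log axis), for each of the 8 libraries. Points are single libraries, bars are 95% exact conditional intervals for counting error, and the dashed line marks equality. All points of lot 58206 lie above 1.5, and all points of *Hoxa*, *Hoxb* and *Hoxc* with the Upstate-type antibody lie below 1.

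Against the whole genome the order of the antibodies was the same. The mean Hox window held 1.20, 1.55, 1.01 and 0.821 times the genome median with the Upstate-type antibody at *T* = 0, 2d, 4d and 6d. It held 2.74 and 3.29 times the median with lot 58206, and 1.85 and 1.32 times with lot 638466, at *T* = 0 and *T* = 6d. The medians are whole tags (4, 3, 4 and 4 for the Upstate-type antibody) and step coarsely. Over the genome mean the Upstate-type ratios were 0.870, 0.843, 0.733 and 0.595 and so below 1 at every time.

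With lot 58206 the tags rose most at the edges of the clusters, after a smaller rise outside them. Averaged over the 8 edges at *T* = 0, the step from 90 to 100 kb outside held 0.814 tags per 1000000 per window. That from 40 to 50 kb outside held 1.11. The 10 kb just outside held 1.16, the first 10 kb inside 1.76 and the next 10 kb 1.98. At *T* = 6d the values in the same order were 0.744, 1.14, 1.11, 1.93 and 2.37. With lot 638466 at *T* = 0 the rise over the edge was from 1.07 to 1.21 and 1.28, and at *T* = 6d the values were 1.05, 1.03 and 1.14. The Upstate-type values went from 0.523 outside to 0.639 and 0.733 inside at *T* = 0 and from 0.486 to 0.457 and 0.552 at *T* = 6d.

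**Figure D2:**
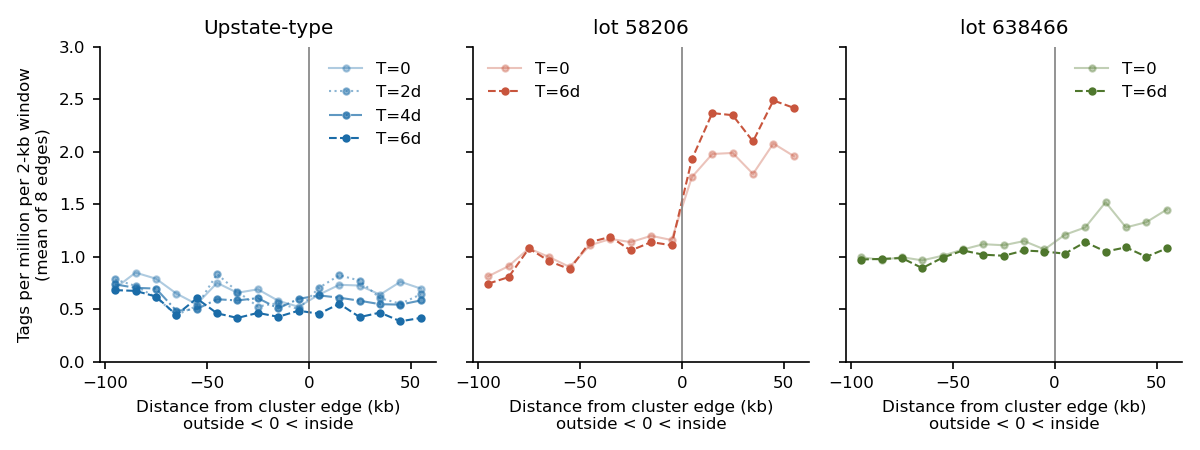
Tags per 1000000 deposited tags per 2-kb window, in steps of 10 kb from 100 kb outside to 60 kb inside the cluster edges, as the mean over the 8 edges. There is 1 panel per antibody and 1 line per time point. With lot 58206 the lines rise from 1.16 and 1.11 just outside the edge to 1.76 and 1.93 just inside it.

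Within the clusters the tags of lot 58206 were not even. In *Hoxb*, the stretch from 20 to 60 kb from the edge on the *Hoxb13* side held 8.25 tags per window at *T* = 0 against 17.2 in the rest of the cluster, and 5.10 against 20.2 at *T* = 6d. This stretch was picked after its values were seen, so its ratios of 0.479 (0.405 to 0.564) and 0.252 (0.204 to 0.308) are descriptions. It was also lower than the rest with lot 638466, at 0.773 (0.676 to 0.881) and 0.724 (0.619 to 0.844). The ratio with the Upstate-type antibody was 0.832 (0.644 to 1.06) at *T* = 0 and 0.596 (0.423 to 0.821) at *T* = 6d. In *Hoxa* a single 10-kb segment, from 30 to 40 kb, stood low with lot 58206, with 63 tags at *T* = 0 and 48 at *T* = 6d between neighbours with 107 and 89 at *T* = 0 and 120 and 126 at *T* = 6d. Among the *Hoxb* segments with the Upstate-type antibody, that from 70 to 80 kb stood out at *T* = 6d, with 51 tags against 27 at *T* = 0.

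**Figure D3:**
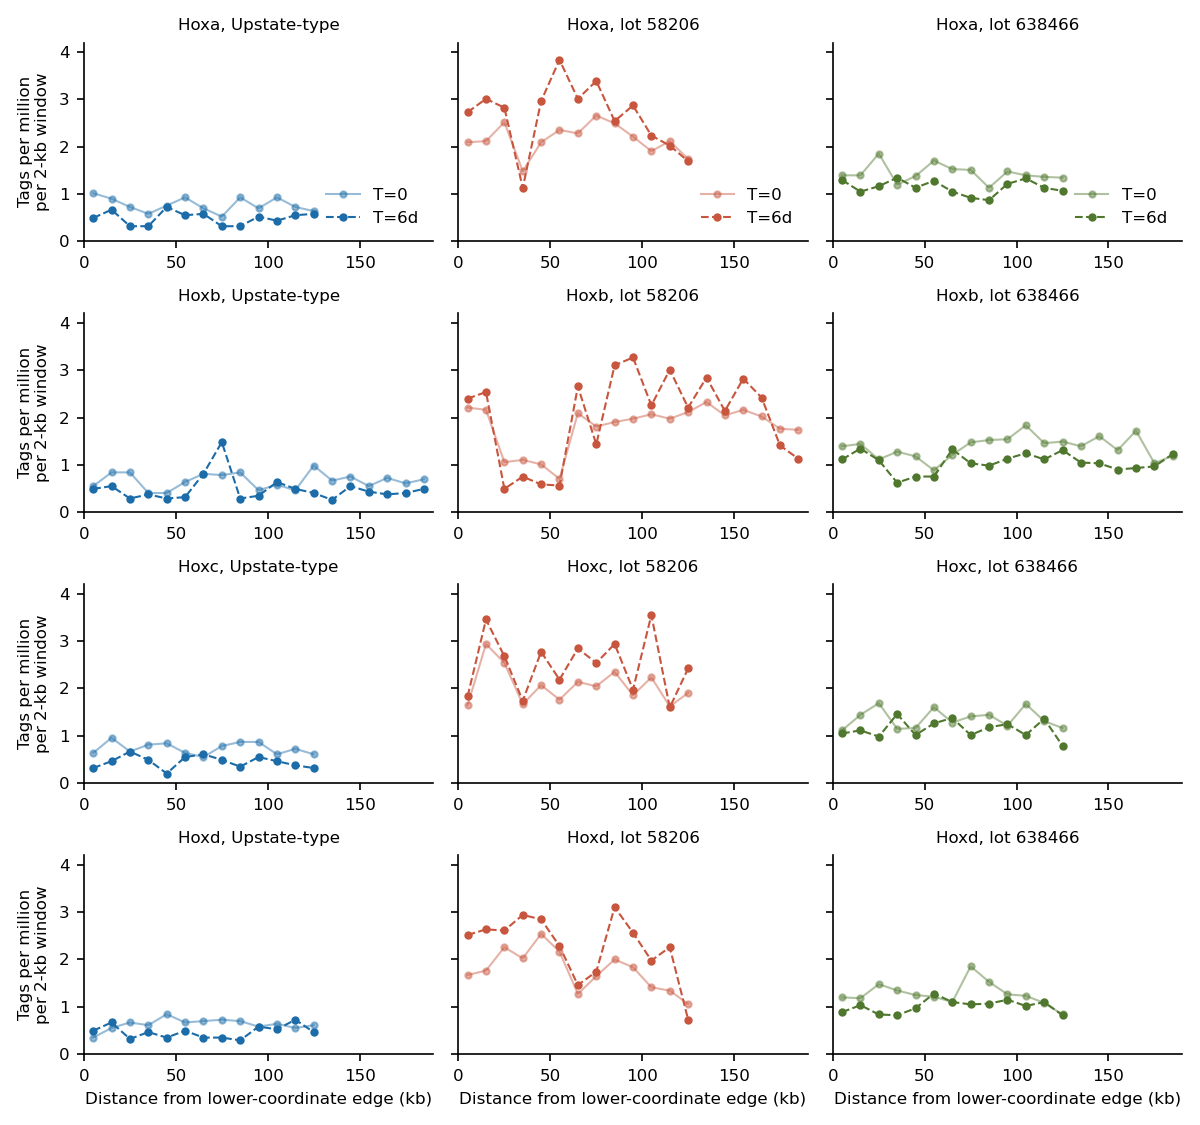
Tags per 1000000 per 2-kb window along each cluster in 10-kb segments, at *T* = 0 (solid) and *T* = 6d (dashed), with 1 row per cluster and 1 column per antibody, and distance counted in kb from the edge with the lower coordinate. The stretch of *Hoxb* from 20 to 60 kb falls to 5.10 tags per window with lot 58206 at *T* = 6d, and the Upstate-type line of *Hoxb* has 1 peak at *T* = 6d, from 70 to 80 kb.

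In each cluster the window with the most tags, taken over the first and last time points of the 3 antibodies, owed its place to lot 58206. In *Hoxb* it was chr11:96132001-96134000 (mm9), with 23 tags of lot 58206 at *T* = 0 and 69 at *T* = 6d. The same window had 19 and 8 tags with lot 638466, and 1, 2, 0 and 1 with the Upstate-type antibody at *T* = 0, 2d, 4d and 6d. The highest count of lot 58206 thus sat on a window nearly empty with the Upstate-type antibody. In *Hoxa* the window was chr6:52142001-52144000, with 31 and 54 tags of lot 58206, 10 and 19 of lot 638466 and 4, 12, 4 and 6 of the Upstate-type antibody. In *Hoxc* it was chr15:102752001-102754000, with 37 and 55 tags of lot 58206, 15 and 17 of lot 638466 and 6, 6, 2 and 3 of the Upstate-type antibody. In *Hoxd* it was chr2:74506001-74508000, with 17 and 53 tags of lot 58206, 14 and 9 of lot 638466 and 4, 4, 3 and 6 of the Upstate-type antibody. At *T* = 6d these windows held 53 to 69 tags of lot 58206 and at most 6 of the Upstate-type antibody. They were chosen as the highest of their clusters, partly on this library of lot 58206. The highest flank window of the same library held 110 tags.

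The windows with the fewest tags were closer to each other. The lowest of all was chr11:96104001-96106000 in *Hoxb*, inside the low stretch, with 2 and 6 tags of lot 58206, 9 and 7 of lot 638466 and 1, 0, 3 and 0 of the Upstate-type antibody. In *Hoxd* it was chr2:74618001-74620000, at the *Hoxd1* end, with 6 and 3 tags of lot 58206, 6 and 7 of lot 638466 and 4, 3, 5 and 2 of the Upstate-type antibody. In *Hoxa* (chr6:52132001-52134000) and *Hoxc* (chr15:102742001-102744000) the lowest windows had between 8 and 14 tags in each library of both Abcam lots.

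Little of the pattern over the Hox windows was shared between antibodies, and the part shared within an antibody varied with the pair of libraries. For Pearson's r each of the 290 windows was taken as its deviation from the mean of its cluster in the library. Between *T* = 0 and *T* = 6d r was 0.57 with lot 58206, 0.10 with lot 638466 and 0.19 with the Upstate-type antibody. Among the Upstate-type libraries of *T* = 2d, 4d and 6d it lay between 0.26 and 0.28. The Upstate-type library of *T* = 0 gave 0.21 with *T* = 2d and 0.08 with *T* = 4d. Between lot 58206 and the Upstate-type antibody r was 0.03 at *T* = 0 and -0.11 at *T* = 6d, and between the Abcam lots it was 0.29 at *T* = 0 and -0.11 at *T* = 6d. These are descriptions over windows of the same libraries. The Upstate-type windows held between 0 and 18 tags, and the part of counting error in these values was not tested. Of the 29 highest windows of lot 58206 at *T* = 6d, 11 (37.9%) were among the 29 highest at *T* = 0 of the same lot, and 2 (6.90%) among those of the Upstate-type antibody at *T* = 6d. Between *T* = 0 and *T* = 6d, lot 638466 shared 3 (10.3%) and the Upstate-type antibody 6 (20.7%). The Upstate-type libraries of *T* = 2d and *T* = 6d shared 11 (37.9%), those of *T* = 4d and *T* = 6d 8 (27.6%) and those of *T* = 2d and *T* = 4d 5 (17.2%). Each list holds 29 of 290 windows, so unrelated lists share some windows too, and a low overlap does not set antibodies apart.

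The Hox windows also spread further apart at *T* = 6d than at *T* = 0 with lot 58206. The variance of tags over windows was 2.12 times the mean at *T* = 0 and 7.88 times at *T* = 6d. In this lot the median window went from 17.0 to 16.5 tags and the highest from 37 to 69. With lot 638466 the variance was 1.52 and 1.46 times the mean, and with the Upstate-type antibody 1.61 and 1.59 times. A widening over the Hox windows was thus seen with lot 58206 and not with the other preparations. The same measure was not computed for the flanks or the genome. The highest flank window of lot 58206 went from 60 to 110 tags, so the widening is not shown to be particular to the clusters.

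**Figure D4:**
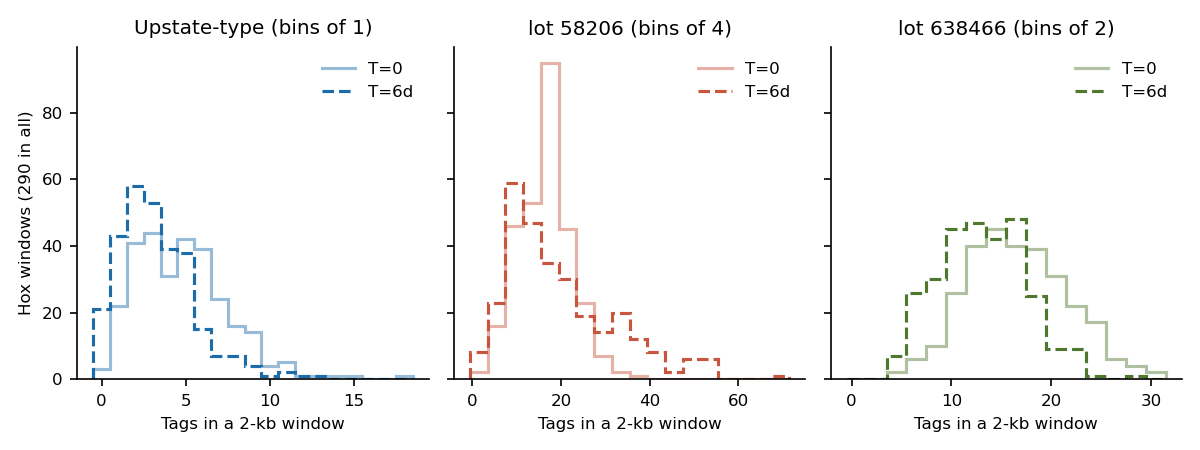
Number of Hox windows (of 290) by tags per 2-kb window at *T* = 0 (solid) and *T* = 6d (dashed), with 1 panel per antibody and bins of 1, 4 and 2 tags. With lot 58206 the *T* = 6d windows reach 69 tags against 37 at *T* = 0, while with the other antibodies the *T* = 6d windows shift to lower numbers.

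The Hox clusters as a whole changed in opposite directions with different antibodies between *T* = 0 and *T* = 6d. With the Upstate-type antibody they held 1393 tags before treatment and 1349, 1173 and 952 on days 2, 4 and 6. The ratio to *T* = 0 was 0.968 (0.898 to 1.04), 0.842 (0.778 to 0.911) and 0.683 (0.629 to 0.743). With lot 638466 they went from 4816 to 3829 tags, a ratio of 0.795 (0.762 to 0.830). With lot 58206 they went from 4766 to 5719 tags, a ratio of 1.20 (1.15 to 1.25). The Upstate-type libraries at *T* = 4d and *T* = 6d thus lay below *T* = 0 beyond counting error, as did *T* = 6d of lot 638466, and *T* = 6d of lot 58206 lay above. Of the 58 segments of 10 kb, 12 had fewer tags at *T* = 6d in lot 58206, 48 in lot 638466 and 48 in the Upstate-type library. All 10-kb segments of the genome were not counted in this way, so these numbers describe the clusters alone.

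Each cluster was tested among all 130-kb blocks of the genome, with a Fisher's exact test (two-sided) that set its tags against all others, adjusted by Benjamini-Hochberg over 19484 blocks and called at an adjusted *P* below 0.05. With the Upstate-type antibody at *T* = 6d all 4 clusters fell, where 23.6% of all blocks were called lower. *Hoxa* stood at 0.636 (0.535 to 0.755) of *T* = 0, *Hoxb* at 0.738 (0.637 to 0.854), *Hoxc* at 0.612 (0.511 to 0.731) and *Hoxd* at 0.741 (0.617 to 0.889). The adjusted *P* ran from 2.84e-07 for *Hoxc* to 0.00342 for *Hoxd* in this Fisher's exact test. They were not extreme among blocks: the ratio of *Hoxc* was above that of 5.47% of blocks and that of *Hoxd* above 14.0%. At *T* = 4d *Hoxa* (0.772) and *Hoxb* (0.802) fell, where 16.2% of blocks were called lower, while *Hoxc* (0.885) and *Hoxd* (0.940) did not pass. At *T* = 2d 0 of 4 clusters passed, with ratios from 0.908 to 1.06, none of them at an unadjusted *P* below 0.05 either, where 15.8% of blocks were called in either direction.

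With lot 638466 all 4 clusters fell, where 21.3% of blocks were called lower. The ratios were 0.795 for *Hoxa* (0.728 to 0.869), 0.764 for *Hoxb* (0.709 to 0.824), 0.842 for *Hoxc* (0.770 to 0.921) and 0.793 for *Hoxd* (0.722 to 0.871). The adjusted *P* of the Fisher's exact test lay between 9.44e-11 for *Hoxb* and 6.34e-04 for *Hoxc*. With lot 58206 all 4 clusters rose, where 14.5% of blocks were called higher. The ratios were 1.22 for *Hoxa* (1.13 to 1.32), 1.11 for *Hoxb* (1.03 to 1.19), 1.22 for *Hoxc* (1.12 to 1.32) and 1.29 for *Hoxd* (1.19 to 1.40). The adjusted *P* of the Fisher's exact test lay between 1.33e-07 for *Hoxd* and 0.0182 for *Hoxb*. Against the 500 kb on each side in place of all other tags, 4 clusters still rose with lot 58206, where 5.52% of all blocks did, and 2 fell with lot 638466, where 5.29% did. With the Upstate-type antibody 2 fell at *T* = 6d and 0 at *T* = 4d, where 17.9% and 11.2% of blocks did. Scaled to background windows chosen at *T* = 0, 0 of 4 clusters rose with lot 58206 and *Hoxb* stood at 0.937, where the median of all blocks was itself 0.850.

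**Figure D5:**
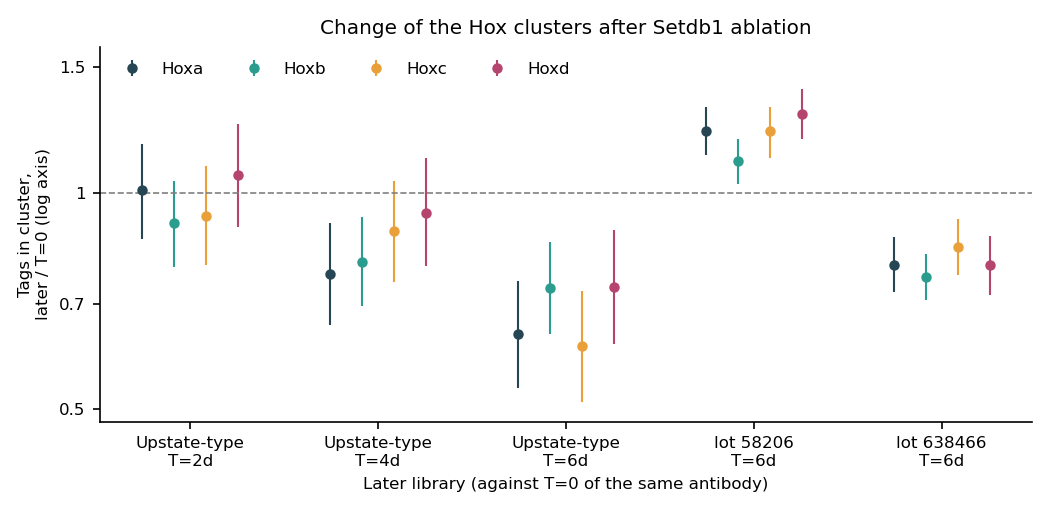
Tags in each Hox cluster in a later library divided by those at *T* = 0 of the same antibody (log axis). Points are single pairs of libraries, bars are 95% exact conditional intervals for counting error, and the dashed line marks equality. All 4 clusters lie between 1.11 and 1.29 with lot 58206 and between 0.764 and 0.842 with lot 638466.

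The difference between antibodies in this change was itself tested, after the directions had been seen, by a Fisher's exact test on the *T* = 0 and *T* = 6d tags of a block in a pair of antibodies, adjusted over the same blocks. Between lot 58206 and lot 638466 all 4 clusters differed, where 15.9% of blocks did. The ratio of the changes was 1.53 for *Hoxa*, 1.45 for *Hoxb*, 1.44 for *Hoxc* and 1.63 for *Hoxd*, with adjusted *P* of 1.36e-07 or less in the Fisher's exact test. Between the Upstate-type antibody and lot 58206 all 4 differed too, where 16.9% of blocks did, with ratios of 0.521, 0.665, 0.504 and 0.574. Between the Upstate-type antibody and lot 638466 *Hoxc* differed (0.727, adjusted *P* = 0.00730 in the Fisher's exact test), where 30.8% of blocks did, and *Hoxa* (0.800), *Hoxb* (0.965) and *Hoxd* (0.935) did not pass. Each antibody has 1 library per time point, so the antibody and the single library cannot be told apart, and which of the preparations read H3K9me3 in these windows was not tested.

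Single windows were tested in the same way but called at a change over 1.5-fold with *P* below 0.01 and no adjustment, thresholds that the study applied to shares of reads on repeats and not to windows. With lot 58206, 18 of 290 windows were higher at *T* = 6d (6.21%), against 0.931% of all windows, and 5 were lower (1.72%), against 0.858%. The mean Hox window held 16.4 tags at *T* = 0 with this lot, where the genome median was 6. A window with more tags passes at a smaller fold change, and the shares were not matched for tags. The same limit holds for lot 638466, for 5-kb windows and for 130-kb blocks. The 18 came from all clusters, 3 from *Hoxa* and 5 from each of the others. Their mean was 17.5 tags at *T* = 0 and 45.6 at *T* = 6d with lot 58206, values that chose them. In libraries that took no part in the choice the same 18 windows had 17.5 and 11.6 tags with lot 638466, and 3.39, 3.56, 2.22 and 2.28 with the Upstate-type antibody at *T* = 0, 2d, 4d and 6d. The rise was thus not seen with another antibody. In the 267 windows not called, lot 58206 went from 16.2 to 18.2 tags.

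With lot 638466, 10 of 290 windows were lower (3.45%), against 0.883% of all windows, and 2 were higher (0.690%), against 0.472%. Here too the mean Hox window held more tags at *T* = 0 (16.6) than the median window of the genome (9). With the Upstate-type antibody at *T* = 6d, 4 of 289 windows were lower (1.38%), against 1.30% of all windows, and 0 higher, against 0.710%. At *T* = 4d 2 of 288 were lower (0.694%), against 0.900%, and 0 higher, against 0.448%. At *T* = 2d 0 of 289 were lower, against 0.316%, and 1 was higher (0.346%), against 0.387%. The shares of the Upstate-type antibody were thus near those of all windows, in windows that held few tags. Among the calls with lot 638466 and the Upstate-type antibody, the smallest *P* belonged to chr11:96072001-96074000 (mm9) in *Hoxb*. This window was named after its values were seen and lies in the low stretch. Over the time course it had 18, 8, 0 and 7 tags of the Upstate-type antibody (*P* = 7.63e-06 on day 4, Fisher's exact test). The same window had 15 and 1 tags of lot 58206, where it was called lower too (*P* = 5.19e-04, Fisher's exact test), and 22 and 12 of lot 638466, where it was not called.

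Across the 3 antibodies, limma with the antibody as a term called no Hox window at *T* = 6d, a share near that of all windows. Its standard errors rest on how the change varied between the antibodies, each with 1 library per time point. Of 290 windows tested 0 were called at an adjusted *P* below 0.05 with a change over 1.5-fold, against 0.227% of all 1177066 windows, and 18 were lower (6.21%) and 1 higher (0.345%) with such a change at an unadjusted *P* below 0.05, against 5.17% and 3.72% of all windows. The median log2 fold change was -0.16 over the Hox windows and 0.01 over all windows, and 197 of the 290 lay below 0. The share of all windows below 0 was not counted. The Hox median was -0.28 with a pseudocount of 0.1 and -0.06 with 2, so its size depended on the pseudocount. At these settings 0 Hox windows were called, where 0 and 0.220% of all windows were called lower. Among 130-kb blocks 0 of 4 clusters were called, against 13.9% of 19493 blocks. The log2 fold change was -0.23 (SE 0.16, adjusted *P* = 0.327) for *Hoxa* and -0.22 (SE 0.13, adjusted *P* = 0.243) for *Hoxb*. It was -0.22 (SE 0.16, adjusted *P* = 0.347) for *Hoxc* and -0.13 (SE 0.15, adjusted *P* = 0.556) for *Hoxd*, all by limma. Without lot 58206 the values were -0.49, -0.41, -0.47 and -0.38, with adjusted *P* from 0.149 to 0.185 by limma. Without the Upstate-type antibody they were -0.02, -0.12, 0.02 and 0.02, so that *Hoxc* and *Hoxd* changed sign. Scaled to background windows chosen at *T* = 0, limma called 8 Hox windows lower and 2 clusters, *Hoxa* (-0.54, adjusted *P* = 0.0489) and *Hoxb* (-0.53, adjusted *P* = 0.0240), where 2.14% of all windows and 41.2% of all blocks were called lower and the median of all blocks was -0.29.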

How the data were processed

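H3K9me3 ChIP-seq was measured in 8 libraries. Their labels give the time point, which is the group, and the antibody, whose number stands for a replicate. Whether any libraries were biological replicates was not given in the sources used here. The authors mapped tags uniquely, brought the libraries of an antibody to the same number of tags, extended each tag to 300 bp and deposited the intervals (mm9, the build in the submitters' processing notes). The deposited files are lists of intervals, with 6887819 to 12194174 tags per library and no values per region. The members and lists were chosen with earlier results of these data known. No column of other samples was set aside (0).

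Tags were placed by interval midpoint in windows of 2 kb in Python 3.11.15 (scipy 1.17.1, pandas 2.3.3, numpy 2.4.6). The Y chromosome was left out, and genome medians and means were taken over 1247374 windows that held a tag in any library. Ratios have exact conditional (Clopper-Pearson) intervals at 95%, which cover counting error only. Within an antibody, each later library was set against *T* = 0 with Fisher's exact test (two-sided). Windows were called over 1.5-fold with *P* below 0.01, and 130-kb blocks averaging at least 20 tags were called at an adjusted *P* (Benjamini-Hochberg) below 0.05. Across antibodies, *T* = 6d was set against *T* = 0 in R 4.3.3 by limma 3.58.1, with lmFit and a trended eBayes, on log2(tags per 1000000 + 0.5), over windows averaging at least 2 tags, with the antibody as a term. The antibody pairs the libraries: deviations of the *T* = 0 and *T* = 6d libraries from their time-point means correlated across 19484 blocks (r = 0.86 in Upstate-type, 0.74 in lot 58206 and 0.71 in lot 638466 libraries). Steps were tested on simulated data. The windows named were those with the most and the fewest tags of each cluster, the 3 flank windows with the most tags and any Hox window called by limma, and 1 *Hoxb* window was added after its values were seen. Promoter sequences came from RefSeq (GRCm38.p6), and figures were drawn with matplotlib 3.10.9. The alternatives tried were other flanks, window and block sizes, pseudocounts and filters, scaling to background windows (below 1.5 times the median), a fit with no antibody term, and leaving out single antibodies. Genes were not placed in windows, because that needs an mm9 annotation, and the control cells and input were not analysed here.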

Additional observations from a re-analysis of the deposited data

Results flagged for a closer look

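The change of the Hox clusters from *T* = 0 to *T* = 6d differed between antibodies, by a Fisher's exact test of the difference over all 130-kb blocks. The change with the Upstate-type antibody was 0.521 times that with lot 58206 in *Hoxa*, 0.665 times in *Hoxb*, 0.504 times in *Hoxc* and 0.574 times in *Hoxd*, and 92, 636, 73 and 205 of all blocks had a ratio as low. The change with lot 58206 was 1.53 times that with lot 638466 in *Hoxa*, 1.45 times in *Hoxb*, 1.44 times in *Hoxc* and 1.63 times in *Hoxd*, and 254, 407, 425 and 140 blocks had a ratio as high. Between the Upstate-type antibody and lot 638466 the change differed in *Hoxc* (0.727 times). With 1 library per antibody and time point, a difference between antibodies cannot be told apart from a difference between single libraries. Groups of at most 3 libraries were too small to look for a single library far from the others.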

How the results depend on the processing

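The levels depended on the choice of reference mainly with the Upstate-type antibody. With flanks of 250 kb the ratio of the clusters to their flanks was 0.695, 0.653, 0.580 and 0.529 at *T* = 0, 2d, 4d and 6d, and 2.25 with lot 58206 at *T* = 6d. With flanks of 1000 kb it was 1.93 with lot 58206 at *T* = 0, and 1.39 and 1.22 with lot 638466. With windows over 3 times the genome median left out, it was 1.01, 1.06, 0.932 and 0.787 with the Upstate-type antibody, and 1.62 and 2.15 with lot 58206. In single clusters with the Upstate-type antibody the direction turned with flanks of 250 kb in *Hoxa* (1.01 at *T* = 0 and 1.05 at *T* = 2d). It turned without the high windows in *Hoxa* (1.03 and 1.08 at *T* = 0 and *T* = 2d), *Hoxb* (1.07, 1.05 and 1.13 at *T* = 2d, 4d and 6d) and *Hoxc* (1.08 and 1.03 at *T* = 0 and *T* = 2d). *Hoxd*, whose ratio was within counting error of 1 at these times, went from 1.08 at *T* = 2d to 0.954 with flanks of 250 kb and 0.747 with flanks of 1000 kb, and from 0.942 at *T* = 0 to 1.02 without the high windows. Over the genome mean in place of the median, the ratios were 0.870, 0.843, 0.733 and 0.595 with the Upstate-type antibody, 2.41 and 2.89 with lot 58206, and 1.70 with lot 638466 at *T* = 0. With 5-kb windows they were 1.33, 1.45, 1.12 and 0.912 with the Upstate-type antibody, 2.57 with lot 58206 at *T* = 0 and 1.73 with lot 638466 at *T* = 0. With 1-kb windows they were 1.16 with the Upstate-type antibody at *T* = 2d and 1.66 with lot 638466 at *T* = 0. With either Abcam lot the pooled clusters lay above flanks and genome under every alternative run.

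Scaling to background windows chosen at *T* = 0 moved the median ratio of all blocks to between 0.754 and 0.870. These windows were chosen on 1 of the libraries compared, and how far that choice made the shift was not tested. Under this scaling limma called 8 Hox windows lower (2.76%, against 2.14% of all windows). By limma 2 clusters were called too, *Hoxa* (-0.54, adjusted *P* = 0.0489) and *Hoxb* (-0.53, adjusted *P* = 0.0240), where 41.2% of all blocks were called lower. The Fisher's exact test then called 4, 10 and 13 windows with the Upstate-type antibody at *T* = 2d, 4d and 6d, of which 3, 10 and 13 were lower (1.04%, 3.47% and 4.50%, against 0.828%, 2.51% and 3.58% of all windows). With lot 638466 it called 27 lower (9.31%, against 2.42%). It called 2 and 4 clusters lower with the Upstate-type antibody at *T* = 2d and *T* = 4d, where 42.3% and 62.7% of blocks were, and 0 with lot 58206, where *Hoxb* turned to 0.937. With background windows chosen on the pooled libraries, an alternative added after seeing the data, limma called 1 window (0.345%) lower, against 0.782% of all windows. The Fisher's exact test then called 2 windows higher (0.692%, against 0.552%) at *T* = 2d and 7 lower (2.43%, against 1.62%) at *T* = 4d with the Upstate-type antibody. With 5-kb windows 12 were called with lot 58206, 11 of them higher (9.48%, against 1.76%). Against 500 kb on each side 0 clusters were called with the Upstate-type antibody at *T* = 4d, 2 lower at *T* = 6d and 2 lower with lot 638466, where 11.2%, 17.9% and 5.29% of blocks were. The cause of these moves was not tested.

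Without the replicate block (the pairing by antibody), limma called 0 windows and 0 blocks in the whole genome, against 0.227% and 13.9% with it. Hox windows and clusters could therefore not stand out in this fit. The log2 fold changes of the clusters stayed at -0.23, -0.22, -0.22 and -0.13. Leaving out 1 antibody in turn gave log2 fold changes from -0.49 to -0.02 in *Hoxa*, -0.41 to -0.12 in *Hoxb*, -0.47 to 0.02 in *Hoxc* and -0.38 to 0.02 in *Hoxd*, and 0 calls in each case.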
